A study of Mus musculus with 202 samples.

Results

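The genes described here are 43 of the 23995 gene symbols in the count table, chosen by name because their products store, translate, deadenylate or degrade the messenger RNA that an egg inherits from its growth phase. They fall into 12 storage factors, 7 factors of polyadenylation and translation, 17 deadenylation factors and 7 factors of decapping and later decay. All 43 had a line in the table. Their levels were taken from single oocytes of C57Bl/6J mice in metaphase of the second meiotic division (MII), where a mature egg waits to be fertilised. A level is given as CPM, the counts of a gene scaled to a total of 1000000 gene counts in that oocyte, in 157 of 202 oocytes with at least 100000 gene counts and 4000 genes with a count.

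The oocytes descended from founding (F0) females that received a control diet (CD) or the diet labelled HFHS, and were given vehicle (Veh) or the androgen dihydrotestosterone (DHT). By its title, the study concerns androgen before birth and a tendency to polycystic ovary syndrome that passes down the generations. The F1 groups kept 10 CD+Veh, 8 CD+DHT, 14 HFHS+Veh and 13 HFHS+DHT oocytes of 15 each. The F2 groups kept 16 of 20, 25 of 25, 20 of 20 and 5 of 5 in the same order. The F3 groups kept 20 of 24 in CD+Veh, 13 of 24 in CD+DHT and 13 of 24 in HFHS+Veh. The labels give no age, no breeding scheme and no dose. Titles with a point, such as those of every F3 HFHS+Veh oocyte and of the F2 groups other than HFHS+DHT, were read as animal and oocyte, which is an inference. No other group names an animal.

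Groups follow the titles. For 36 oocytes, 32 of them among those kept, another label field contradicts the title: the other hormone treatment is given for 15 oocytes of F1 HFHS+Veh and for 5 of F2 HFHS+DHT, and the other generation for 8 of F2 HFHS+Veh and 8 of F3 HFHS+Veh. The kept libraries held 133654 to 16359078 gene counts (median 2122239) and 4603 to 13419 genes (median 9102). Their summed level of 13 oocyte markers ranged from 165 to 28438 CPM (median 14260). The summed level of 30 markers of cumulus cells, which surround the oocyte, ranged from 9.73 to 58594 CPM (median 347), and 21 of those 30 had a median of 0. The summed level of 6 blood markers reached 292 CPM and had a median of 0. One library stood against its label: F3 CD+Veh oocyte 21 held 165 CPM of oocyte markers and 58594 CPM of cumulus markers, with 14.33% spike-in counts and 4603 genes. Ranges that it sets, and results that rest on it, are given with and without it where both were computed.

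A growing oocyte transcribes and stores messenger RNA, then falls silent, so that meiotic maturation and the start of development run on stored transcripts. Storage proteins such as CPEB1, the DDX6 and LSM14 proteins, 4E-T and ZAR1 hold transcripts with short poly(A) tails or blocked caps, and cytoplasmic polyadenylation with DAZL, poly(A) polymerases and poly(A)-binding proteins switches chosen ones on. During maturation the adaptor BTG4 brings the CCR4-NOT deadenylase to stored transcripts, and decapping and exonucleases follow. Many transcripts of this machinery are themselves stored and switched on late, through the cytoplasmic polyadenylation element (CPE), a U-rich motif that CPEB1 binds near the polyadenylation signal. The labels give polyA RNA as the molecule and Smart-seq2 as the method, which primes on poly(A) tails and reads whole transcripts without molecular identifiers. A lower level of a transcript and a shorter tail on it cannot be told apart in such data.

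Matches to this motif are shown for abundant members that carry one, since through such sequences the machinery could act on its own transcripts. Whether it does so here was not tested. Each line is a stretch of 30 bases of the sense strand from the annotated 3′ untranslated region (GENCODE vM21, GRCm38, known also as mm10), with the CPE letters TTTTAT or TTTTAAT and the signal AATAAA in capitals.
Btg4, chr9:51119797-51119826, plus strand: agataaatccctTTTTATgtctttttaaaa
Cnot7, chr8:40493036-40493065, minus strand: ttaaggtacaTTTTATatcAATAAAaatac
Pan2, chr10:128321309-128321338, plus strand: acagcatgTTTTATaaAATAAAagtatttt
Pan3, chr5:147548469-147548498, plus strand: ttTTTTAATAAAgaattgcagaAATAAAct
Lsm14a, chr7:34344661-34344690, minus strand: tgtTTTTAATAAAggccatggAATAAAgag
Dcp1a, chr14:30527011-30527040, plus strand: aaatatatttTTTTAATAAAatttcaaaac
In Pan3, Lsm14a and Dcp1a the CPE letters overlap an AATAAA, and Pan3 and Lsm14a hold another AATAAA after it. The Btg4 stretch holds none.

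The search took TTTTAT and TTTTAAT on the sense strand only, in the last 120 bases of the 3′ untranslated region. Of the 43 members, 40 had a transcript with such a region, and 10 of the 40 (25%) held a match, against 20.4% of 17966 genes searched the same way. Among genes with a median of at least 20 CPM the share was 30.1% of 3894 genes, and among the members at that level it was 9 of 27 (33.3%). By role, 6 of 16 deadenylation members held a match (Btg4, Cnot1, Cnot3, Cnot7, Pan2 and Pan3), 2 of 11 storage members (Lsm14a and Ybx2), 2 of 6 decay members (Dcp1a and Xrn1) and 0 of 7 translation members. The 10 members with a match had a median level of 150 RPKM and the 30 without had 15.9 RPKM, RPKM being the authors' reads corrected for gene length and sequencing depth. Among the members of at least 20 CPM the medians were 232 RPKM for the 9 with a match and 52.8 RPKM for the 18 without, beside 30.2 and 23.7 RPKM over all genes at that level. A match is a description of letters, not a shown site of binding.

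The deadenylation adaptor led the whole set by level. Btg4 (chr9:51060901-51119875), which joins CCR4-NOT to its targets, had 80.7 to 9576 CPM over the 157 oocytes with a median of 4545. On the length-scaled measure its median of 3485 RPKM ranked 13 of 23995 symbols. The low end of 80.7 CPM is F3 CD+Veh oocyte 21, and without it the lowest oocyte had 2114 CPM. Of the 43 members, 29 had a median of at least 20 CPM, as did 17.6% of all symbols, and 12 had a median of at least 100 RPKM, as did 2.75% of all symbols.

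**Figure D1:**
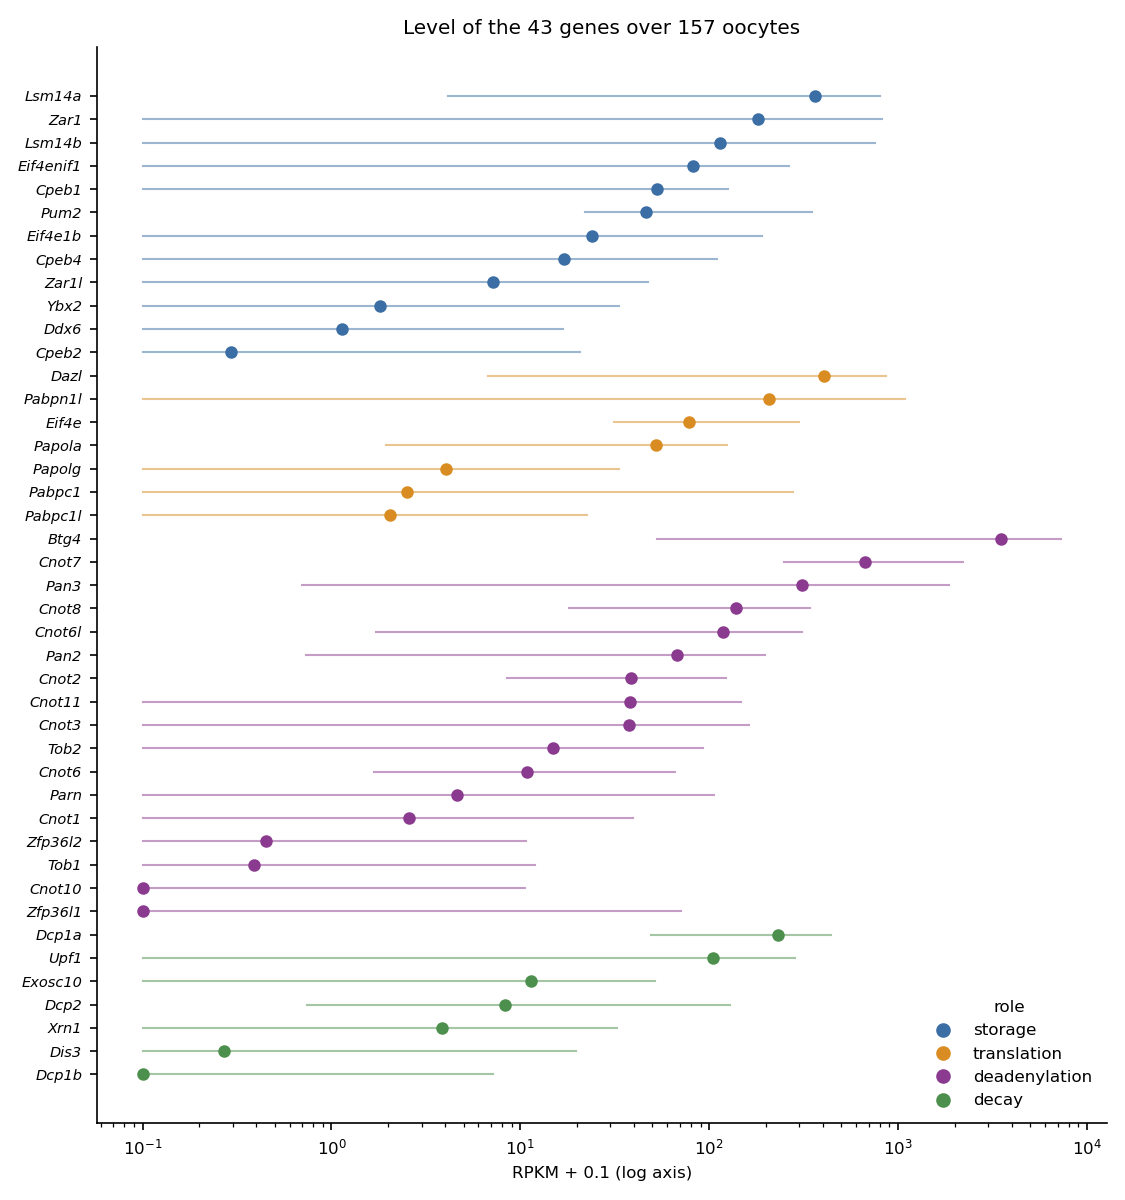
Level of each of the 43 members in 157 MII oocytes, as RPKM + 0.1 on a log axis, grouped by role (colour); the point is the median and the line runs from the lowest to the highest oocyte, with an oocyte at 0 drawn at 0.1. Btg4 stands highest at a median of 3485 RPKM, Cnot7 follows at 666 RPKM, and Cnot10, Zfp36l1 and Dcp1b have medians of 0.

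The storage factors spanned from abundant to almost absent. Lsm14a, a scaffold of repressed RNA granules, had a median of 363 RPKM, Zar1, an oocyte RNA-binding zinc finger protein, had 181 RPKM and its relative Lsm14b had 114 RPKM. Eif4enif1 (4E-T, which ties the cap-binding protein to repression) had 81.8 RPKM, the CPE-binding protein Cpeb1 had 53.1 RPKM and the Pumilio protein Pum2 had 46.3 RPKM. The oocyte cap-binding form Eif4e1b had 23.8 RPKM and Cpeb4 had 16.9 RPKM. At the low end were Zar1l (7.08 RPKM), the germ-cell Y-box protein Ybx2 (1.72 RPKM), the repressor helicase Ddx6 (1.04 RPKM) and Cpeb2 (0.195 RPKM). Ybx2 and Ddx6 transcripts were thus near the limit of detection, with a count in 117 and 135 of 157 oocytes.

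Among the factors of polyadenylation and translation, Dazl, which promotes translation of stored transcripts, had the highest median at 406 RPKM. Pabpn1l, an oocyte nuclear-type poly(A)-binding protein that works with BTG4, followed at 206 RPKM. The cap-binding protein Eif4e had 78.5 RPKM and the poly(A) polymerase Papola 52.4 RPKM, while its relative Papolg had 3.94 RPKM. The cytoplasmic poly(A)-binding proteins were low, with medians of 2.42 RPKM for Pabpc1 and 1.93 RPKM for the oocyte form Pabpc1l. Pabpc1 reached 920 CPM in F3 CD+Veh oocyte 21 and no more than 70.6 CPM in any other oocyte.

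Below Btg4, the deadenylases themselves differed widely. The catalytic CCR4-NOT subunit Cnot7 had a median of 666 RPKM (rank 78) and its paralogue Cnot8 had 138 RPKM. Pan3, the adaptor of the PAN2-PAN3 deadenylase, had 312 RPKM against 67.7 RPKM for its catalytic partner Pan2, and the other catalytic CCR4-NOT subunit Cnot6l had 118 RPKM. The regulatory subunits Cnot2, Cnot11 and Cnot3 had 38.4, 38.1 and 37.3 RPKM, but the scaffold Cnot1, on which the complex assembles, had 2.48 RPKM and Cnot10 a median of 0. Of the remaining factors, Tob2 (an adaptor between poly(A)-binding protein and CCR4-NOT) had 14.8 RPKM, the catalytic subunit Cnot6 10.8 RPKM and the poly(A)-specific ribonuclease Parn 4.53 RPKM. Tob1 had 0.287 RPKM. The AU-rich element binding proteins Zfp36l2 and Zfp36l1 had 0.351 RPKM and 0, with a count in 103 and 51 oocytes.

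In the decay group the decapping activator Dcp1a had a median of 232 RPKM, and the decapping enzyme it serves, Dcp2, had 8.24 RPKM. Upf1, the helicase of nonsense-mediated decay, had 104 RPKM over all oocytes, a median that hides the contrast between generations described further on. The nuclear exosome ribonuclease Exosc10 had 11.3 RPKM and the exonuclease Xrn1 3.76 RPKM. Dis3, another exosome nuclease, had 0.170 RPKM, and Dcp1b had a median of 0 with a count in 78 oocytes. Levels under 1 CPM rest on few counts in the smaller libraries, so that a 0 there is not absence.

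Most related genes were far apart. Of the 12 paralogue pairs, 11 differed by 2-fold or more in median RPKM. Cnot6l made up a median 91.4% of the summed RPKM of Cnot6l and Cnot6 and was the higher in 156 of 157 oocytes. Cnot7 made up 83.2% beside Cnot8 and was higher in all 157, and Zar1 made up 96.6% beside Zar1l, higher in 156. Dcp1a was higher than Dcp1b in all 157, Papola than Papolg in 156, Cpeb1 than Cpeb2 in 156 and Tob2 than Tob1 in 151. The 1 oocyte in which Cnot6l was the lower was F3 CD+Veh oocyte 21.

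Against that order, the oocyte-specific cap-binding form was the minor one: Eif4e1b made up a median 20.4% beside Eif4e, which was the higher in 146 oocytes. Lsm14b made up 25.35% beside Lsm14a. The pair that differed by less than 2-fold was Pabpc1l and Pabpc1, where Pabpc1l was higher in 71 oocytes and Pabpc1 in 80. Zfp36l2 exceeded Zfp36l1 in 92 oocytes and was exceeded in 19, with both near 0. How the authors' counting treated reads shared between paralogues is not given in the sources used here.

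**Figure D2:**
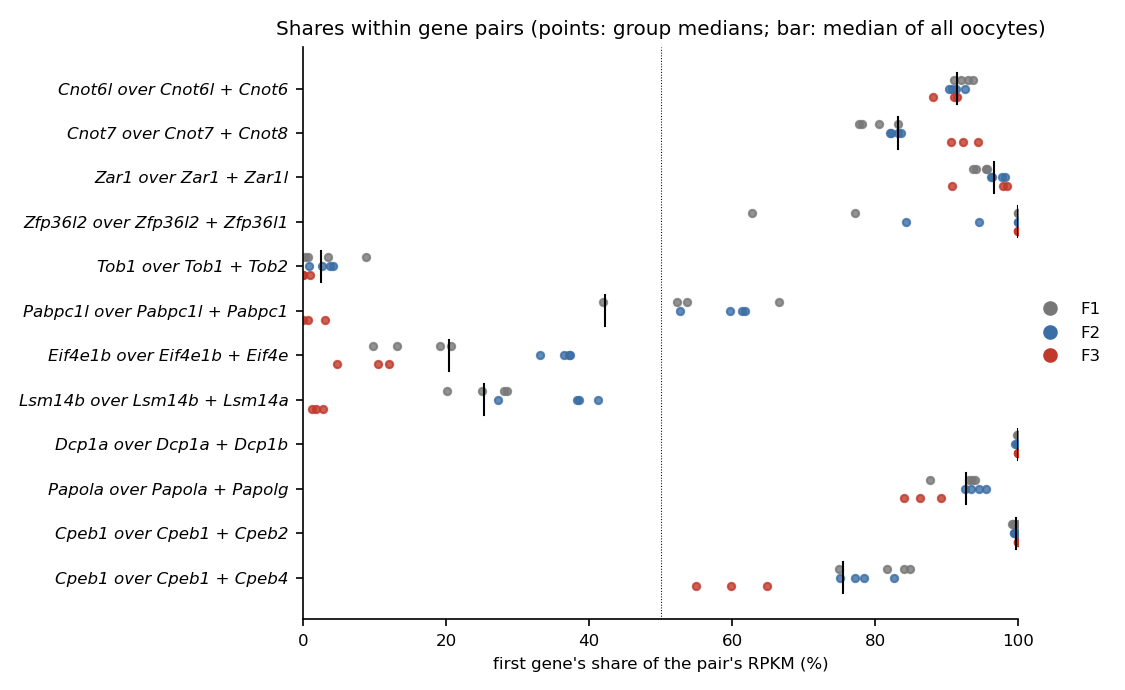
Share of the first gene in the summed RPKM of each of 12 paralogue pairs, in percent; each point is the median of 1 group, coloured by generation, and the black bar is the median of all 157 oocytes. The Cnot7 share lies at group medians of 77.7% to 83.6% in F1 and F2 and 90.5% to 94.4% in F3, and the Lsm14b share at 20.1% to 41.3% and 1.24% to 2.74%.

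Several pair shares differed between generations. The Cnot7 share had group medians of 77.7% to 83.6% in the F1 and F2 groups and of 92.3%, 90.5% and 94.4% in F3 CD+Veh, CD+DHT and HFHS+Veh. Lsm14b held 20.1% to 41.3% beside Lsm14a in the F1 and F2 groups and 1.24% to 2.74% in the F3 groups. By group medians Pabpc1l held 42.0% to 66.5% beside Pabpc1 in F1 and F2 and 0% to 3.08% in F3. Both genes were low, and single oocytes ran from 0% to 100% in every F1 group and in F3 CD+DHT and HFHS+Veh. These shares are ratios within an oocyte, so scaling by library total does not enter them, and they show unequal levels of the 2 genes, not which of them moved.

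Within a group, members varied from oocyte to oocyte about as much as other genes. The SD of log2(CPM + 1) among oocytes of a group had a median of 0.851 over the 29 members with at least 20 CPM, beside 0.921 over all 4217 genes at that level. Without F3 CD+Veh oocyte 21 the medians were 0.764 and 0.859. Cnot7 varied least, with an SD of 0.315 over all oocytes and 0.248 without that one. Without it Dazl (0.282), Lsm14a (0.321), Btg4 (0.344) and Cnot6l (0.376) came next. Cnot1 (1.37 with and without it), Exosc10 (1.302 and 1.26) and Pabpn1l (1.34 and 1.21) were among the most variable. Their median levels were 20.1, 31.5 and 236 CPM, beside 984 to 4545 CPM in the least variable members just named. The part of level in the spread was not tested.

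Some members varied together across oocytes. After removing group means, Spearman's rho over 157 oocytes was 0.66 for Cnot11 with Lsm14b, 0.65 for Cnot6l with Cpeb4 and 0.61 for Dcp1a with Cnot8. Without F3 CD+Veh oocyte 21 these were 0.66, 0.61 and 0.64. Within F2 animals, over 61 oocytes, the same pairs had 0.76, 0.64 and 0.64. Btg4 and Pabpn1l had 0.55 over all oocytes, 0.53 without that one and 0.65 within F2 animals. In the same order Btg4 had -0.25, -0.39 and -0.48 with Cnot6l and -0.12, -0.17 and -0.41 with Cnot1. Its values with the other CCR4-NOT subunits are not all given here. Pan3 ran against several members, with -0.55, -0.59 and -0.63 against Dcp1a in the same order. It had -0.48, -0.53 and -0.72 against Tob2, and -0.46, -0.55 and -0.64 against Btg4. Both values of a pair come from 1 library and share its depth and its number of genes, so these are descriptions only. The pairs named were picked from all pairs of the members with at least 20 CPM. Pairs of other genes were not examined, so nothing particular to these members is shown.

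In F2 the animals could be compared, with counts summed over the kept oocytes of each. Btg4 had 5914, 3975, 5201 and 5025 CPM in the 4 CD+Veh animals, 7162, 5759, 3839, 3572 and 6863 CPM in the 5 CD+DHT animals and 5836, 4904, 3303 and 6018 CPM in the 4 HFHS+Veh animals. The 3 groups overlap throughout. Dcp1a likewise had 1278 ± 229 (SD, n = 4), 1211 ± 269 (n = 5) and 1414 ± 325 CPM (n = 4), and Lsm14a 963 ± 163, 957 ± 151 and 1037 ± 117 CPM.

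No member passed the test in F2. With edgeR's quasi-likelihood test and Benjamini-Hochberg adjustment, 0 of 11962 genes (0%) passed an adjusted p of 0.05 when CD+DHT was compared with CD+Veh, HFHS+Veh with CD+Veh, or CD+DHT with HFHS+Veh, and so 0 of 43 members. At an unadjusted p under 0.05 there were 220, 118 and 125 genes in those comparisons and 0 members in each. DESeq2 called 1 gene in each comparison and 0 members, and limma called 0. The members' median log2 fold change was 0.08, 0.10 and -0.00, beside -0.01, 0.02 and -0.02 over all genes tested. With library totals alone as scaling the first of these members' medians turned to -0.09, beside -0.16 over all genes. Of 83 other genes of these pathways tested, 0 passed. The p-values measure the spread between these animals only, and comparisons that share the CD+Veh animals are not independent.

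For DHT on the control diet, the smallest p among higher members was that of Cnot2, a core CCR4-NOT subunit, at 78.9, 88.3, 88.0, 76.0 and 85.7 CPM in the CD+DHT animals and 73.5, 87.7, 77.1 and 56.6 CPM in the CD+Veh animals. Its log2 fold change was 0.33 ± 0.16 (SE; edgeR p = 0.0590, adjusted p = 1.0), and the groups overlap. Cpeb4 (0.45 ± 0.25) and Dazl (0.25 ± 0.15) came next, neither past the threshold. Among lower members, Dcp2 (-0.33 ± 0.18), Eif4e1b (-0.47 ± 0.26) and Pabpc1l (-0.70 ± 0.54) had the smallest p, and none passed. Eif4e1b had 55.8, 64.1, 42.0, 26.17 and 76.7 CPM in CD+DHT animals and 88.3, 133, 58.4 and 52.3 CPM in CD+Veh animals, so its groups overlap too. Without CD+Veh animal 3, which held 40.1 CPM of Pabpc1l beside 3.78 to 9.15 CPM in the others, the Pabpc1l value was 0.15.

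For the HFHS diet against the control diet, the higher members with the smallest p were Cnot6 (log2 fold change 0.30 ± 0.19), Cnot2 (0.26 ± 0.17) and Cnot8 (0.25 ± 0.18). The lower ones were Parn (-0.52 ± 0.28), Cnot3 (-0.40 ± 0.32) and Ybx2 (-0.69 ± 0.57). Parn, with the smallest of these p (edgeR p = 0.0866, adjusted p = 1.0), had 10.6, 18.7, 7.56 and 12.9 CPM in the HFHS+Veh animals and 21.8, 23.9, 10.9 and 17.8 CPM in the CD+Veh animals. The ranges overlap, and none of the 6 passed. Without the oocytes of contradictory labels the Ybx2 value was 0.01.

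Between CD+DHT and HFHS+Veh, Parn (0.44 ± 0.27), Cpeb2 (0.68 ± 0.58) and Cpeb4 (0.24 ± 0.25) were the higher members with the smallest p. Cnot6 (-0.36 ± 0.18), Eif4e1b (-0.41 ± 0.26) and Dcp2 (-0.25 ± 0.18) were the lower ones. Cnot6 had 49.7, 67.8, 60.9, 39.6 and 45.7 CPM in CD+DHT animals and 77.0, 77.1, 67.2 and 63.0 CPM in HFHS+Veh animals, overlapping only through CD+DHT animal 7 (edgeR p = 0.0706, adjusted p = 1.0). None passed. Cpeb4 had -0.03 under limma on the animals' mean log values.

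**Figure D3:**
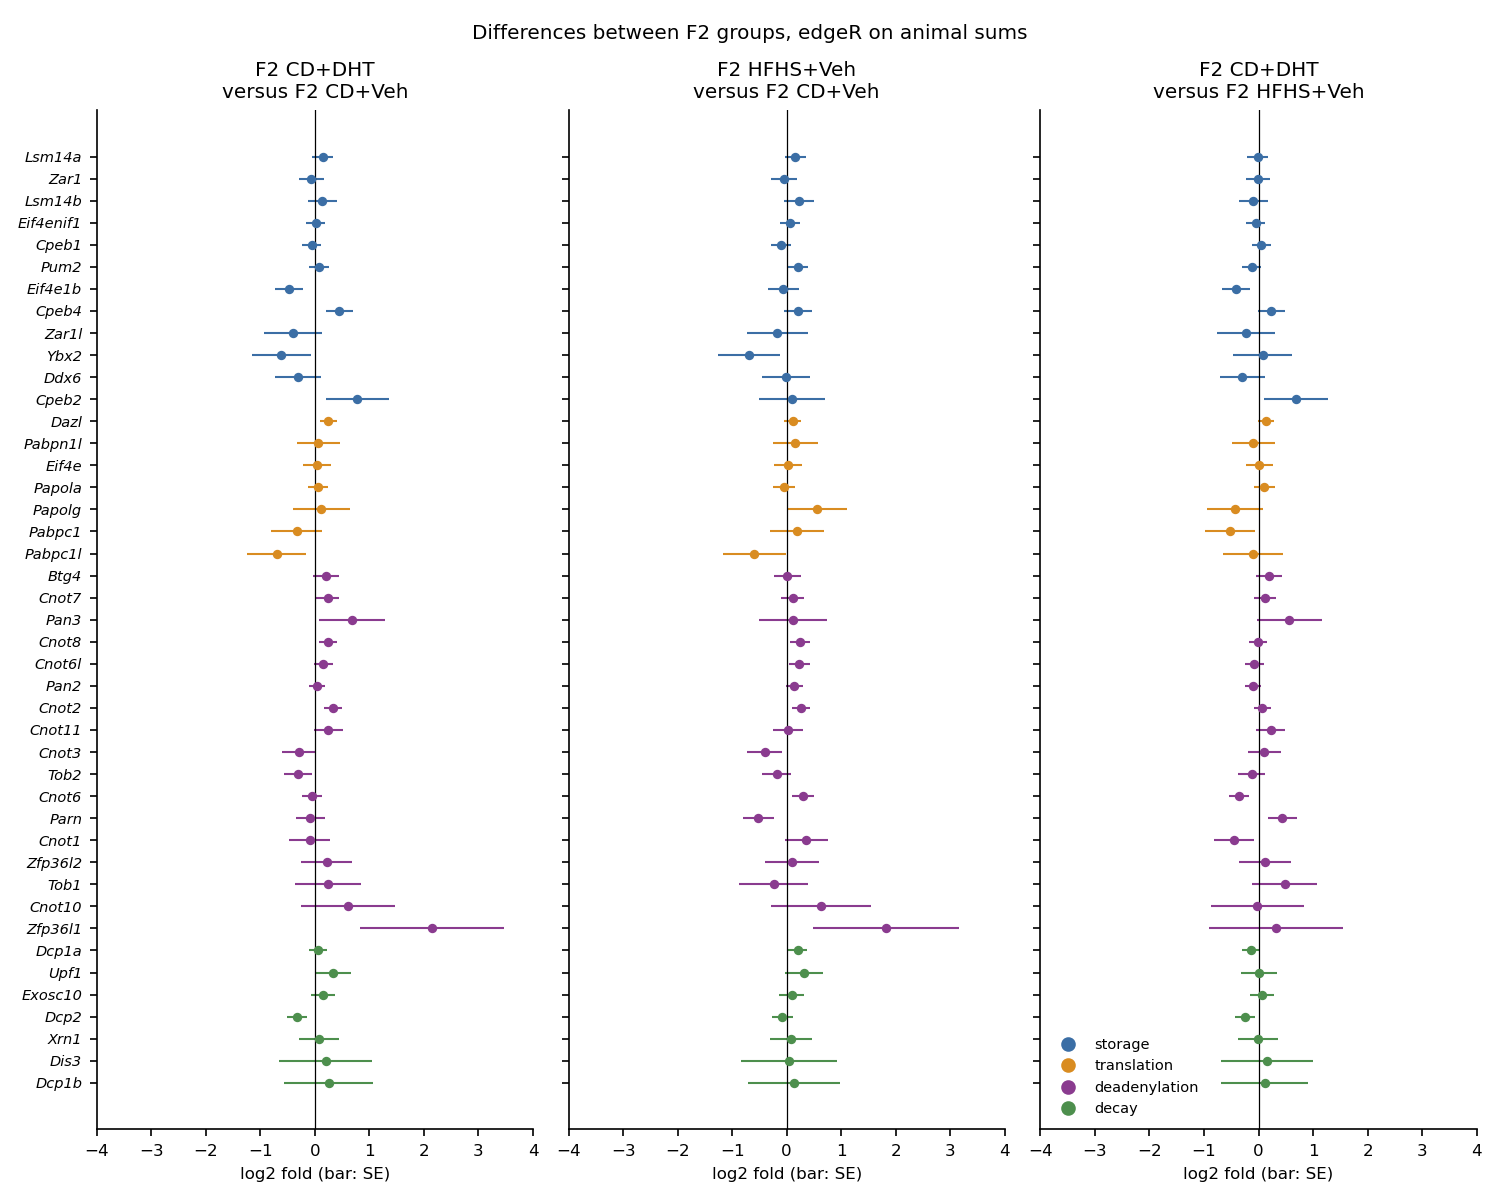
Log2 fold change of each member in the 3 F2 comparisons, with its standard error, from edgeR on counts summed per animal. None of the 43 members passes an adjusted p of 0.05, and the widest bars belong to members with few counts.

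Pan3 had the largest share of its variance between animals among the 29 members of at least 20 CPM. It had 1179, 978, 2985 and 3233 CPM in CD+Veh animals 2, 3, 13 and 14, then 1386, 1916, 4450, 6012 and 1459 CPM in CD+DHT animals 6, 7, 8, 9 and 17, and 1434, 1397, 4106 and 1876 CPM in HFHS+Veh animals 4, 5, 10 and 19. High and low animals occur in every group. Of the variance of Pan3 among the 61 oocytes, 63.9% lay between animals, beside medians of 23.02% over the members and 15.9% over all genes at that level. Eif4enif1 (56.6%) and Dcp1a (50.6%) followed. Animals 8, 9 and 10, the highest in Pan3, had the fewest genes per oocyte (medians of 7956, 7771 and 8447), while animal 17 had 9182 genes and low Pan3; the part of this in the result was not tested.

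In F1 no group names an animal, so each group is 1 pooled sample and no test was made. Pooled levels carry exact Poisson 95% intervals, which cover counting error only because PCR copies are not independent molecules. A member was counted as different past 2-fold with at least 20 CPM in either group. Parn, the poly(A)-specific ribonuclease, was the 1 member of 31 at that level to differ in CD+DHT against CD+Veh, and it was lower. It had 0 to 43.6 CPM in the CD+DHT oocytes (median 9.31) and 2.49 to 36.5 CPM in the CD+Veh oocytes (median 18.3), which overlap. Pooled, it had 10.9 CPM (8.71 to 13.44) against 26.04 CPM (23.95 to 28.3), a log2 fold of -1.26. With oocytes weighted alike the value was -0.50, and without CD+DHT oocyte 6 it was -0.98. Across all genes at that level 0.549% were higher and 0.718% lower by 2-fold. Single oocytes moved these shares: 1.01% and 0.908% were higher without CD+DHT oocyte 6 or CD+Veh oocyte 6, and 1.36% and 1.17% lower without CD+DHT oocyte 2 or CD+Veh oocyte 11.

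In F1 HFHS+Veh against CD+Veh, 0 of 31 members were past 2-fold, beside 1.29% of genes higher and 0.0844% lower. The share higher was 0.68% without HFHS+Veh oocyte 1 and 2.01% without HFHS+Veh oocyte 11. The share lower was 0.149% and 0.274% without those 2 oocytes, and 0.378% and 0.188% without CD+Veh oocytes 6 and 11. The largest values were 0.45 for Zar1, 0.45 for Exosc10 and 0.32 for Cnot6, and -0.93 for Eif4e1b, -0.47 for Cnot3 and -0.33 for Xrn1. Eif4e1b passed 2-fold when HFHS+Veh oocyte 11, HFHS+Veh oocyte 12 or CD+Veh oocyte 11 was left out. All 15 oocytes titled F1 HFHS+Veh carry a contradictory hormone label, so that their treatment is uncertain. The median of summed cumulus markers was 1276 CPM in F1 HFHS+Veh and 314 CPM in F1 CD+Veh. Without HFHS+Veh oocyte 1, the richest in cumulus markers, 0 members were past 2-fold.

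Exosc10, a nuclease of the nuclear exosome, was the 1 member of 30 past 2-fold in F1 HFHS+DHT against HFHS+Veh. Its oocytes had 4.04 to 37.2 CPM (median 20.3) and 23.8 to 78.1 CPM (median 42.6), overlapping between 23.8 and 37.2 CPM. Pooled levels were 23.4 CPM (21.1 to 25.73) and 49.0 CPM (46.9 to 51.1), a log2 fold of -1.07, beside 0.19% of genes higher and 1.14% lower. Without HFHS+Veh oocyte 11 it was -0.89. Without HFHS+DHT oocyte 10 the shares of genes were 0.444% higher and 4.31% lower, with Exosc10 still the 1 member, and 0.0845% were higher without HFHS+DHT oocyte 12. In F1 HFHS+DHT against CD+DHT, 0 of 29 members passed 2-fold (0.723% of genes higher and 0.681% lower). The share higher was 0.405% without HFHS+DHT oocyte 12, and the share lower was 2.79% without HFHS+DHT oocyte 10 and 1.06% without CD+DHT oocyte 6. The largest values there were Pan3 0.38, Xrn1 0.35 and Eif4e 0.24, and Cnot3 -0.76, Eif4e1b -0.75 and Exosc10 -0.58.

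In F3 each comparison had 2 members past 2-fold by pooled levels, all lower than CD+Veh, and other summaries of the same oocytes named other members. In CD+DHT against CD+Veh these were Cnot1, the CCR4-NOT scaffold, at 26.84 against 57.5 CPM (log2 fold -1.10), and Upf1 at 9.42 against 23.6 CPM (-1.32), out of 29 members. Across genes 4.47% were higher and 3.62% lower. Single oocytes carried both. Cnot1 had -0.50 without CD+Veh oocyte 10, and it was also within 2-fold without CD+Veh oocyte 16 (-0.98), CD+DHT oocyte 14 (-0.59) or CD+DHT oocyte 15 (-0.75). Upf1 had -0.76 without CD+Veh oocyte 23, and with oocytes weighted alike its direction turned to 0.53. By oocyte medians 3 members were past 2-fold and all were higher, namely Lsm14b, Xrn1 and Exosc10. With oocytes weighted alike Lsm14b and Pabpn1l were higher and Pabpc1 and Parn lower, and by mean RPKM only Pabpn1l passed, higher. CD+Veh oocyte 21 held 920 CPM of Pabpc1 and 358 CPM of Parn. No other oocyte held more than 70.6 and 54.7 CPM of these 2 genes. The weighted values include that oocyte and were not computed without it.

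In F3 HFHS+Veh against CD+Veh, Zar1 had 34.3 against 76.2 CPM (log2 fold -1.15) and Upf1 11.4 against 23.6 CPM (-1.05), out of 28 members, beside 2.36% of genes higher and 6.13% lower. Zar1 stayed past 2-fold when any 1 oocyte was left out (-1.38 to -1.004), but not with oocytes weighted alike (-0.75). By oocyte medians Exosc10 was higher and Eif4e1b lower past 2-fold, and with oocytes weighted alike Pabpc1 and Parn were lower. Pabpc1 and Parn are again the genes high in CD+Veh oocyte 21, which the weighted values include. Neither Zar1 nor Upf1 passed under these summaries, and by mean RPKM 0 members did. Upf1 had -0.49 without CD+Veh oocyte 23, -0.88 without oocyte 7 of HFHS+Veh animal 22, and -0.98 or -0.99 without oocyte 2 or 3 of animal 22 or oocyte 4 or 6 of animal 26. It had -1.62 without oocyte 1 of animal 22. These 4 calls were the same without CD+Veh oocyte 21.

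Of the other genes of these pathways, 47 to 53 were at that level in the 6 pooled comparisons. None was past 2-fold in F1 (0 in each comparison), 1 was higher and 3 were lower in F3 CD+DHT, and 2 were lower in F3 HFHS+Veh, each against CD+Veh.

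Among the 31 members with a group median of at least 20 CPM, the widest ratios between group medians were those of F3 to the earlier generations. The highest of the 11 group medians was 95.5 times the lowest for Upf1, 43.6 times for Lsm14b, 16.3 times for Pan3 and 16.01 times for Tob2, and in each of these the lowest was an F3 group. For Dcp1a the ratio was 1.31 and for Btg4 1.61. The labels give 1 protocol for all oocytes and no date, so that generation, library preparation and sequencing cannot be told apart. These comparisons were chosen after the levels had been seen. Upf1 (chr8:70331525-70353278) had 0 to 121 CPM in the 46 F3 oocytes (median 12.6) and 155 to 1285 CPM in the 111 F1 and F2 oocytes (median 557), with no overlap. Pan3 (chr5:147430161-147548502) had 3.23 to 465.7 CPM in F3 (median 210) and 584 to 8683 CPM in F1 and F2 (median 2017), again with no overlap. The 3.23 CPM are those of CD+Veh oocyte 21, and the next lowest F3 oocyte had 103.8 CPM. They were 2 of 31 members at that level, and 0.326% of all genes were lower and 0.0383% higher without overlap in this way. Without F3 CD+Veh oocyte 21 the members were the same 2, beside 0.383% of genes lower and 0.0767% higher.

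**Figure D4:**
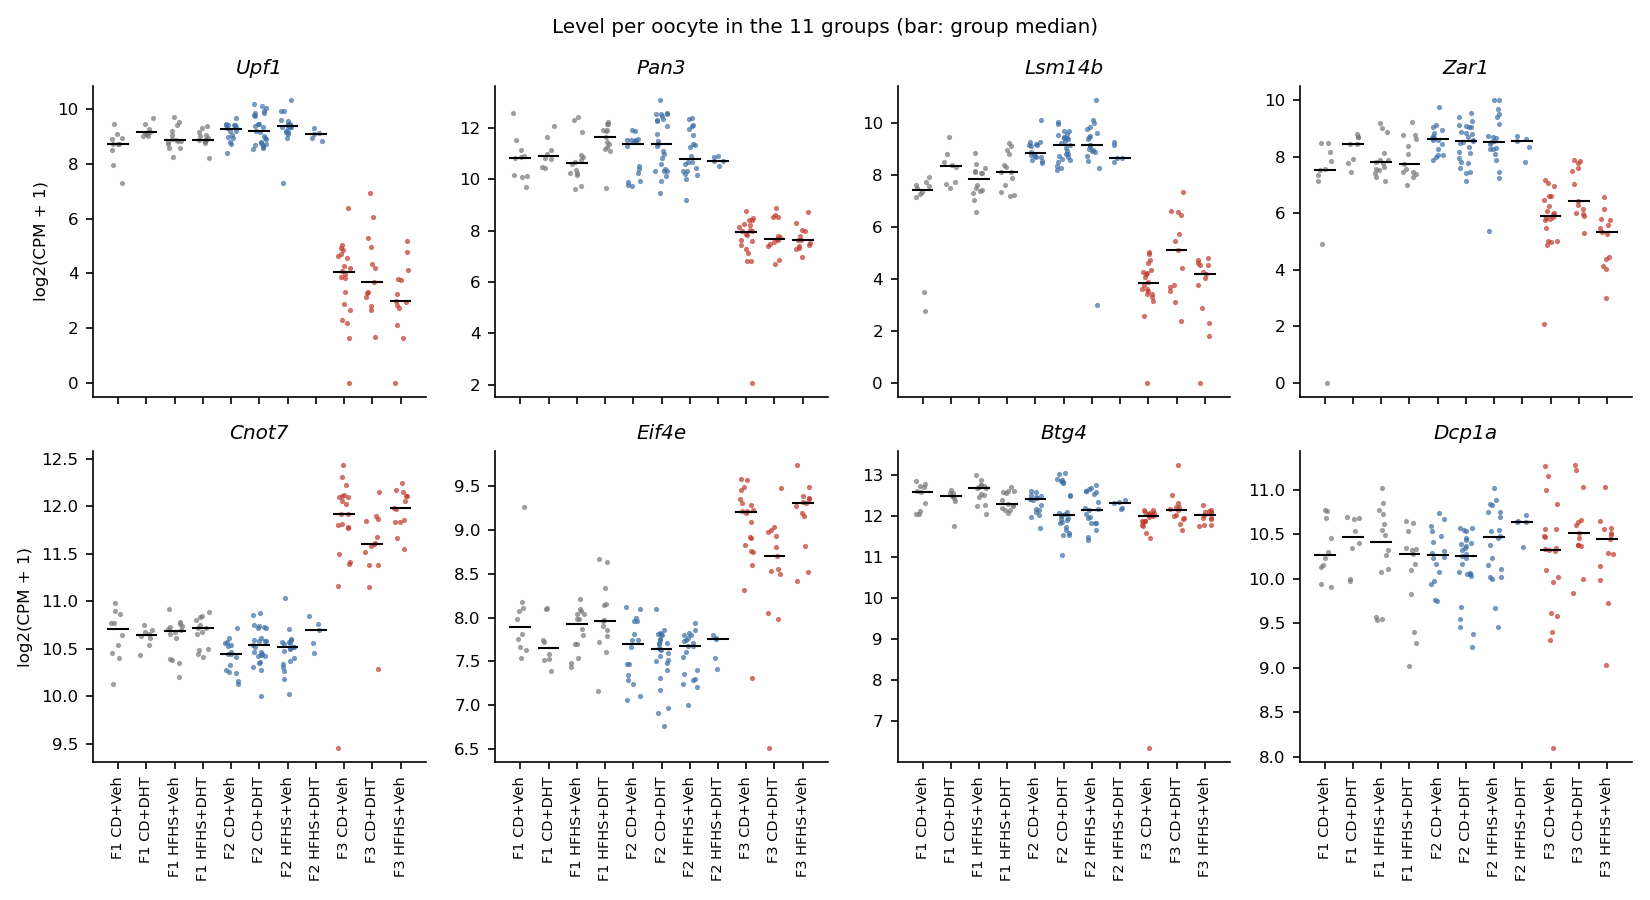
Level of 8 members in each kept oocyte, as log2(CPM + 1), by group and coloured by generation, with the bar at the group median; each point is 1 oocyte and each panel has its own scale. Upf1 and Pan3 in the 3 F3 groups lie below every F1 and F2 oocyte, Cnot7 and Eif4e have higher medians in F3, and Btg4 and Dcp1a overlap across generations.

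Because Upf1 was singled out for separating oocytes by title, its values cannot decide between the titles and the contradictory label. Upf1 had 3.37 to 35.2 CPM in the oocytes of animal 22, titled F3 and labelled F2 in the other field. It had 674 to 1285 CPM in those of animal 10, titled F2 and labelled F3. The group medians of Upf1 were 424, 567, 464 and 471 CPM in F1, 611, 583, 663 and 547 CPM in F2, and 15.4, 11.7 and 6.94 CPM in F3, in the order CD+Veh, CD+DHT, HFHS+Veh and, where present, HFHS+DHT. The order among F1 and F2 groups lies within the spread of their oocytes.

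Storage factors differed in both directions. Lsm14b had 0 to 161 CPM in F3 (median 16.4) and 5.79 to 1890 CPM in F1 and F2 (median 418), and Zar1 had 3.23 to 234 CPM (median 59.6) against 0 to 1019 CPM (median 333). Both overlap, and 11 F1 and F2 oocytes lay under the highest F3 oocyte in Lsm14b and 36 in Zar1. Without CD+Veh oocyte 21 the lowest Zar1 in F3 was 6.94 CPM. Lsm14a, the abundant relative of Lsm14b, had medians of 1052 and 967 CPM. Cpeb4 and Eif4enif1 were higher in F3, with medians of 199 against 109 CPM and 497 against 256 CPM.

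Among the deadenylation factors, the catalytic subunit Cnot7 was higher in F3, at 700 to 5515 CPM (median 3684) against 1024 to 2090 CPM (median 1507). The lowest is CD+Veh oocyte 21, and the next had 1244 CPM. All but 1 of the 45 F3 oocytes other than CD+Veh oocyte 21 lay above every F1 and F2 oocyte. Cnot2 had 21.4 to 314 CPM (median 168) against 21.5 to 283 CPM (median 84.6). Cnot3 went the other way, with 0 to 144 CPM (median 41.1) against 18.02 to 405 CPM (median 109), as did the adaptor Tob2 with 0 to 58.7 CPM (median 10.8) against 0 to 363 CPM (median 81.1). Btg4 overlapped almost wholly, with medians of 4134 and 5269 CPM. In the decay group Dcp1a did too, with medians of 1364 and 1285 CPM, and in the translation group Eif4e was higher in F3 with 536 against 212 CPM.

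By group medians, 9 of the 31 members lay higher in all 3 F3 groups than in every F1 and F2 group (Cpeb4, Eif4enif1, Pum2, Dazl, Papolg, Eif4e, Cnot2, Cnot6l and Cnot7), as did 18.1% of all genes at that level. Another 8 lay lower in all 3 (Lsm14b, Zar1, Cnot3, Cnot11, Pan3, Parn, Tob2 and Upf1), as did 33.7% of all genes. Of 56 other genes of these pathways, 7 were higher and 32 lower. A difference of this kind was therefore common in the table as a whole. F3 oocytes also had fewer genes (median 7606, against 9539 in F1 and 10036.5 in F2), more of the summed cumulus markers (1297 CPM, against 550 and 148) and less of the oocyte markers (11303 CPM, against 17182 and 16207). The part of these in the levels was not tested.

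Within each F0 treatment the pooled F3 and F2 levels gave the same 7 members lower by 2-fold in all 3 treatments: Lsm14b, Zar1, Cnot3, Cnot11, Pan3, Tob2 and Upf1. The log2 folds in CD+Veh, CD+DHT and HFHS+Veh were -4.60, -5.95 and -5.88 for Upf1, -5.39, -4.98 and -5.63 for Lsm14b, and -3.06, -3.74 and -3.35 for Pan3. For Cnot7 they were 1.47, 0.98 and 1.47, for Eif4e 1.51, 1.14 and 1.55, and for Btg4 -0.31, -0.49 and -0.36. Of 30 members, 7, 7 and 9 were lower in the same order of treatments, beside 26.36%, 21.5% and 28.8% of genes. The share of all genes lower in all 3 treatments is not given here, so the list of 7 is no result about these members. The members higher numbered 4, 3 and 4, beside 15.7%, 17.18% and 17.8% of genes.

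For F1 against F2 the lists were shorter. No member was higher by 2-fold in any of the 3 treatments (0 each, beside 1.01%, 0.507% and 1.53% of genes). In CD+Veh, 5 of 31 members were lower (Lsm14b, Eif4e1b, Zar1, Cnot6 and Cnot11), beside 3.52% of genes. That count was 1 (0.993% of genes) without oocyte 1 of F2 CD+Veh animal 3, 2 without F1 CD+Veh oocyte 11 and 3 without F1 CD+Veh oocyte 1. In CD+DHT 0 of 29 were lower (0.571% of genes) and in HFHS+Veh 2 of 30, Lsm14b and Eif4e1b (0.681%). These comparisons use the same F2 oocytes as those with F3, so the values are set side by side only.

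In 1 case animals are named on both sides, F3 HFHS+Veh (animals 22 and 26) against F2 HFHS+Veh (4, 5, 10 and 19). Another animal named in the F3 HFHS+Veh titles had no oocyte that passed the filter on counts and genes, and is absent here. Upf1 had 13.37 and 8.93 CPM in the F3 animals and 566, 628, 915 and 640 CPM in the F2 animals. Lsm14b had 6.21 and 18.7 CPM against 486, 897, 622 and 458 CPM, and Zar1 21.7 and 49.5 CPM against 572, 552, 237 and 321 CPM. Cnot7 was the opposite, with 4046 and 4067 CPM against 1527, 1386, 1395 and 1501 CPM. These 4 genes were named after the levels were seen. Their animals do not overlap between the 2 generations, and neither do those of other members such as Pan3 and Eif4e. How many of all genes are apart in this way was not counted, so it is no result about the members. In the test of the same animals 24.6% of all genes passed.

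With edgeR and Benjamini-Hochberg adjustment, 16 of the 43 members passed an adjusted p of 0.05, 8 higher and 8 lower in F3, beside 24.6% of 13314 genes (9.91% higher and 14.7% lower). The members' median log2 fold change was -0.08 and that of all genes -0.50. Without F3 animal 26 these were 0.15 and -1.06, and without F3 animal 22 -0.24 and -0.73. By role, 4 of 12 storage members passed (2 higher and 2 lower), 2 of 7 translation members (both higher), 8 of 17 deadenylation members (3 higher and 5 lower) and 2 of 7 decay members (1 higher and 1 lower). Of 85 other genes of these pathways, 34 passed, 10 higher and 24 lower. Among them, chosen after their values were seen, were the nuclear poly(A)-binding protein Pabpn1 (-3.68 ± 0.41), the Y-box protein Ybx1 (-2.15 ± 0.32) and the terminal uridylyltransferase Zcchc6 (1.83 ± 0.30).

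Upf1 fell by 5.79 ± 0.58 on the log2 scale (edgeR adjusted p = 3.58e-06), Lsm14b by 5.45 ± 0.52 (1.97e-06), Zar1 by 3.34 ± 0.39 (1.28e-05) and Tob2 by 2.87 ± 0.40. Cnot7 rose by 1.66 ± 0.25 (edgeR adjusted p = 9.61e-05), Eif4e by 1.77 ± 0.30 and Cnot2 by 1.09 ± 0.21. These 7 passed in all 11 alternative fits of this comparison. Pan3 (-3.33 ± 0.87, edgeR adjusted p = 0.00857), Cnot3 (-1.81 ± 0.42), Cnot11 (-1.41 ± 0.35) and Parn (-1.26 ± 0.42) also fell, and Pan2 (0.77 ± 0.19), Eif4enif1 (0.91 ± 0.22), Cpeb4 (1.20 ± 0.30), Dazl (0.69 ± 0.19) and Exosc10 (1.04 ± 0.30) rose. These last 9 each lost the call in at least 1 alternative fit. Without F3 animal 22 all of the 9 but Eif4enif1 lost it, without F3 animal 26 Dazl, Cnot11, Pan3 and Parn did, and without F2 animal 5 or 19 Parn did. Parn kept the call in 5 of the 11 alternative fits, Pan3 and Exosc10 in 8 and Eif4enif1 in 9. Over these fits the log2 fold ran from -3.53 to -2.33 for Pan3, 0.71 to 1.06 for Eif4enif1 and 0.405 to 1.355 for Exosc10. With library totals alone as scaling the median of all genes was -0.71 and 12 members passed, 4 higher and 8 lower, and by DESeq2 the median was -0.00 and 19 passed. Btg4 (-0.08 ± 0.30), Dcp1a (0.11 ± 0.21) and Lsm14a (0.25 ± 0.23) did not pass.

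**Figure D5:**
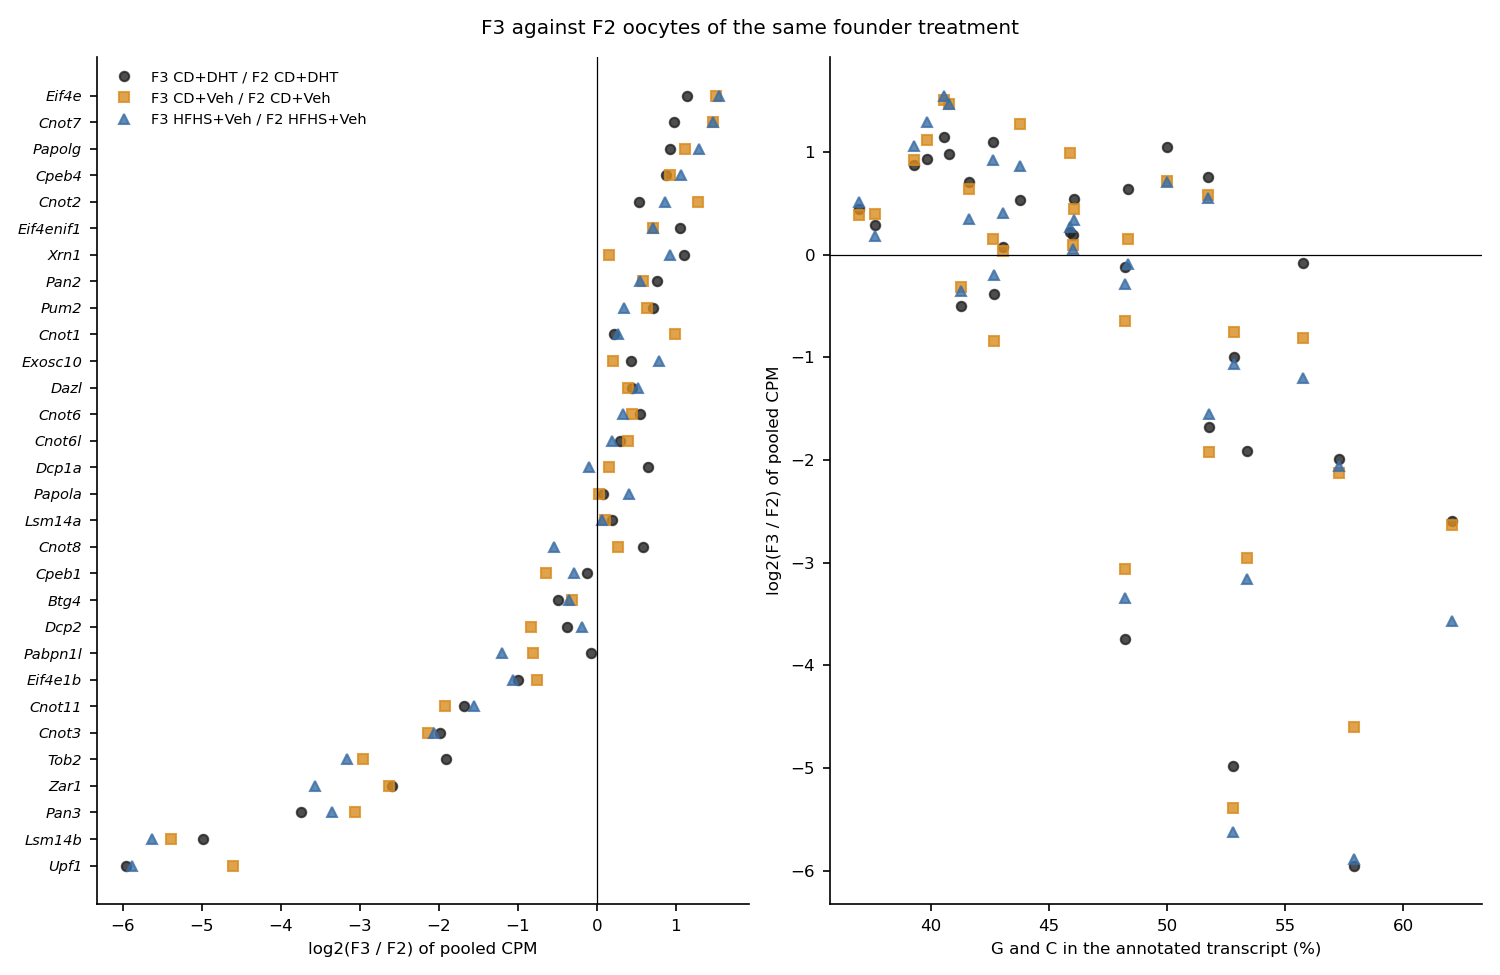
Pooled log2 fold of F3 over F2 within the 3 F0 treatments (symbols), for 30 members on the left and against the GC content of the annotated transcript, in percent, for the 28 with a value on the right; no error is drawn, as each group is 1 pooled sample. Among members of high GC content Zar1 and Upf1 lie low, and among those of low GC content Cnot7 and Eif4e lie high.

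The fold between F3 and F2 varied with the base composition of the transcript. Zar1, at 62.1% GC, Upf1 at 57.9%, Cnot3 at 57.3% and Tob2 at 53.4% were lower in F3, and Cnot2 at 43.8%, Cnot7 at 40.7%, Eif4e at 40.5% and Papolg at 39.8% were higher. Other members departed from this order. Btg4, at 41.3%, was not higher in F3, and Pan2, at 51.7%, was higher in the tested HFHS+Veh comparison. Pan3, at a middling 48.2%, was among those that fell most. Spearman's rho of GC content with the pooled log2 fold of F3 over F2 was -0.69, -0.64 and -0.74 over 28 members in CD+Veh, CD+DHT and HFHS+Veh. The first was the same without F3 CD+Veh oocyte 21. Over all 4828, 4675 and 4668 genes with a value it was -0.43, -0.32 and -0.53. For F1 over F2 it was -0.32, 0.03 and -0.20 over 29, 27 and 28 members, and -0.10, 0.11 and -0.02 over 4553, 4362 and 4465 genes. Genes are not independent replicates and the points share their libraries, so these are descriptions, and the part of GC content in the levels was not tested.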

How the data were processed

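Counts per gene symbol for 202 single-oocyte Smart-seq2 libraries were deposited by the authors. The submitters' processing notes name STAR 2.4.2a, Seurat 2.0 and mm10; no source used here gives the counting program, gene annotation, strand setting or gene lengths, so genes sharing reads with a paralogue or an antisense partner are uncertain. RPKM values were deposited by the authors and were used as given for levels between genes. The 24489 gene lines gave 23995 symbols, repeated lines having been summed, and 92 spike-in lines were left aside. Identical libraries were looked for, and 0 pairs were found.

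The members and lists were chosen with earlier results of these data known. F2 counts were summed per animal and fitted once for the 3 groups with named animals in edgeR 4.0.16 (R 4.3.3; quasi-likelihood, TMM, filterByExpr). F2 HFHS+DHT names no animal and entered no comparison. F1 and F3 groups were pooled without a test. Named were the members past a threshold, and otherwise the 3 in each direction with the smallest p (F2) or largest fold (F1, F3). The F3 and F1 comparisons with F2 were added after the levels were seen; the tested one, F3 HFHS+Veh, shared its estimate of spread with the 3 F2 groups. DESeq2 and limma 3.58.1, other scalings, filters, weightings and RPKM means, and leaving out oocytes or animals were tried. The tests were checked on simulated data. Python 3.11.15 was used.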

Additional observations from a re-analysis of the deposited data

Results flagged for a closer look

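In the 29 members with a median of at least 20 CPM and the 3 F2 groups of animals, 87 sets of animals were examined for a single animal far from the rest, and 8 sets (9.2%) held one. The same rule marked 5.98% of the 12651 sets of all 4217 genes at that level, and chance gives about 1 in 20 groups. Members measured in 1 animal are not independent of each other. The animals named are inferred from the titles.

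CD+DHT animal 9 was the lowest in 3 members. It had 113 CPM of Cpeb1 beside 194 to 222 CPM in the other 4 animals, 189 CPM of Cnot8 beside 281 to 304 CPM, and 744 CPM of Dcp1a beside 1253 to 1430 CPM. The same animal had the highest Pan3 of its group, at 6012 CPM, and the fewest genes per oocyte, with a median of 7771. It was marked as the lowest in 2.04% of all genes.

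CD+Veh animal 3 was the highest in 3 members. It had 853 CPM of Lsm14b beside 432 to 502 CPM in the other 3 animals, 334 CPM of Cnot11 beside 154 to 169 CPM, and 45.6 CPM of Cnot1 beside 18.3 to 19.21 CPM. It rests on 3 kept oocytes, and the median number of genes was 11993. It was marked as the highest in 3.08% of all genes.

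CD+DHT animal 7 was the highest in Pum2, with 349 CPM beside 224 to 256 CPM. CD+DHT animal 8 was the lowest in Eif4e, with 148 CPM beside 192 to 207 CPM.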

How the results depend on the processing

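No paired analysis was possible because animal numbers do not recur between the groups compared. In F2 the 43 members stayed without a call in every alternative, and leaving out any animal gave 0 to 0 genes and 0 to 0 members in each comparison; DESeq2 gave 1, 1 and 1 genes. Among the members named in F2, log2 folds that changed sign were Pabpc1l (-0.99 to 0.15 over the animals left out, 0.15 without F2 CD+Veh animal 3), Ybx2 0.0093 (without contradictory labels) and Cpeb4 -0.0262 (limma). Over all 43 members an alternative changed the sign of 0 to 16, the most being 16 with library totals alone and 14 with limma on animal means in CD+DHT against CD+Veh, where the median of all genes moved to -0.16 and -0.27. Without contradictory labels, 5 members had an unadjusted p under 0.05 in CD+DHT against HFHS+Veh, and 0 passed. A planned limit on cumulus markers was void, since it lay above the total of any library.

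In F3 against F2 HFHS+Veh, leaving out an animal gave 1660 to 3414 genes and 9 to 19 members (9 without F3 animal 22, 12 without F3 animal 26); without contradictory labels, which leaves F3 animal 26 alone and assumed to vary like the other groups, 1864 genes and 10 members passed. Members past 2-fold by weighting oocytes alike, by mean RPKM or by oocyte medians were, in F1 CD+DHT against CD+Veh, 2, 2 and 0 (1 as reported) and, in F1 HFHS+Veh against CD+Veh, 1 and 1 by the first and second (0 as reported). Mean RPKM gave 0 in F1 HFHS+DHT against HFHS+Veh (1 as reported) and 0 in F3 HFHS+Veh against CD+Veh (2 as reported). F3 CD+DHT against CD+Veh had 4 weighted alike, 3 by medians and 1 by mean RPKM (2 as reported, and neither of the 2 among them), and Upf1 there had 0.53 and 0.51 in place of -1.32. F1 against F2 had 3 by medians in CD+Veh (5 as reported), 2 by medians and 1 weighted alike in CD+DHT (0 as reported), and 4 weighted alike in HFHS+Veh (2 as reported). The cause of these moves was not tested. In F1 against F2 a single oocyte moved the share of all genes by over 1.5 times in CD+Veh (1.6% higher without F1 oocyte 11), in CD+DHT (1.38% and 0.886% lower without F1 oocytes 2 and 11) and in HFHS+Veh (1.18% and 1.11% lower without F1 oocytes 11 and 12, 1.17% and 1.09% without oocytes 1 and 2 of animal 19).

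Leaving out 1 oocyte gave 0 to 1 members in F1 CD+DHT and in F1 HFHS+Veh against CD+Veh and in F1 HFHS+DHT against HFHS+Veh, 0 to 0 in F1 HFHS+DHT against CD+DHT, and 1 to 3 in both F3 comparisons with CD+Veh. It gave 10 to 13, 10 to 12 and 11 to 14 in F3 against F2 (CD+Veh, CD+DHT, HFHS+Veh), and 1 to 7, 0 to 1 and 2 to 2 in F1 against F2. All 12 pair orders and the spread between oocytes moved by less than their own spread. In the F1 and F3 groups the deepest oocytes weigh most in a pooled level, and members under 1 CPM were beyond the depth of the smaller libraries.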
